A study of Mus musculus with 17 samples.

Results

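CpG islands, stretches dense in CpG, are usually free of DNA methylation in adult tissue, where most other CpG sites carry it. Known exceptions are the control regions of imprinted genes, which carry methylation on the copy inherited from a given parent, the promoters of genes used in germ cells, which are methylated in somatic cells, and islands inside transcribed genes. The sites described here were such exceptions: CCCGGG sites in CpG-rich sequence that already carried methylation in young mice. They were selected on the mean of the young mice, at 20% or more, and on their sequence, a 500 bp window of the mm9 genome in which GC made up 50% or more and the CpG ratio, observed to expected, reached 0.6. There were 201 of them among 15742 autosomal sites with at least 100 reads in 13 or more of 17 mice, out of 173449 sites listed.

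The 17 C57BL/6 mice came from a colony kept for studies of caloric restriction, and methylation was read in whole blood by DREAM, in which a methylation-sensitive enzyme (SmaI) and then a tolerant enzyme (XmaI) cut CCCGGG and leave different ends. Ad libitum food (AL) was given to 5 AL-young mice of 4 months (2 females, 3 males) and to 7 AL-old mice of 29 to 33 months (5 females, 2 males). Caloric restriction (CR) was the diet of 5 CR-old mice of 32 to 38 months (2 females, 3 males). Whole blood mixes cell types, so that a shift in cell types and a change within a cell type cannot be told apart here. Values are raw methylation, the percent of reads with the methylated end, unless called adjusted, which is the authors' value after correction with spiked standards.

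Libraries held 6407519 to 51612805 reads, and the members had a median of 196 to 2464 reads per mouse. In each mouse the adjustment scaled the odds by 1 constant, its correction factor, which was 0.872 to 1.13 in 11 mice and at least 1.3 in the others, namely the 5 AL-old females (1.40 to 3.96) and the female CR-old 06 (1.80). These 6 are called high-correction mice. In AL-old, high correction and female sex cannot be told apart, and no AL-young mouse had high correction. Some spiked standards differed with it: in the 6 mice with high correction Kan read 11.6 ± 5.42% raw and 20.6 ± 2.63% adjusted, against 33.7 ± 2.58 and 33.6 ± 1.98% elsewhere, and Gfp read 41.7 ± 5.63% raw and 60.7 ± 5.10% adjusted, against 40.8 ± 3.49 and 40.7 ± 1.85%. Luc read 13.9 ± 5.79% raw and 24.5 ± 3.62% adjusted, against 26.9 ± 1.75 and 26.8 ± 1.13%. T324 read 99.4% raw in each set of mice, and La168 read 0.0552 against 0.162% raw. On neither scale did Kan, Luc and Gfp all read alike in the 6 mice and the other 11. Whether high correction marks a library batch was not tested, since the labels used here give none. Only 152 of the 201 sites reached 100 reads in AL-old 08 and 162 in AL-old 13, against 179 to 201 in each of the other mice, and 142 sites reached it in all 17.

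Stretches of 120 bases around members are shown on the plus strand of mm9, with the CCCGGG that was read in capitals. The first set holds members whose methylation differed between the old groups, and their values follow further on.
AI661453 (coding exon, higher in CR-old), chr17:47605495-47605614: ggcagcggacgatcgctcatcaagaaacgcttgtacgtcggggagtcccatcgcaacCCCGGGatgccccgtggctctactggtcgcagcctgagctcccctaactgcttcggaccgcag
Clcn4-2 (20625 bp from the nearest start, higher in CR-old), chr7:7230786-7230905: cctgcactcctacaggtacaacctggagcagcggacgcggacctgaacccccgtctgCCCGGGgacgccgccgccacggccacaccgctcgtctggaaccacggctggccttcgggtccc
4933403G14Rik (coding exon within the promoter window, higher in CR-old), chr8:128194144-128194263: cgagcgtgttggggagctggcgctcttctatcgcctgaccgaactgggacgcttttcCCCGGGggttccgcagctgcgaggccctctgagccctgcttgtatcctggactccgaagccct
Cdr2l (coding exon, higher in CR-old), chr11:115255274-115255393: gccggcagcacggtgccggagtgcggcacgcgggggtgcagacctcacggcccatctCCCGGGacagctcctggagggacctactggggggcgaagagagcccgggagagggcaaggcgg
Prokr1 (coding exon, lower in CR-old), chr6:87531567-87531686: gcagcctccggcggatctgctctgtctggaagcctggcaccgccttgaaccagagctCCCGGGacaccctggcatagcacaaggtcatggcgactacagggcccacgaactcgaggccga

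The next pair holds the members with the widest separation of AL-old from AL-young mice in each direction that lay outside untranslated sequence.
Dazl (intron within the promoter window), chr17:50432385-50432504: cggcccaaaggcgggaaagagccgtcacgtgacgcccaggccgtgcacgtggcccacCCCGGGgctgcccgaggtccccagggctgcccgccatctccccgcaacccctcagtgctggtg
2410075B13Rik (exon of a pseudogene transcript), chr15:75811562-75811681: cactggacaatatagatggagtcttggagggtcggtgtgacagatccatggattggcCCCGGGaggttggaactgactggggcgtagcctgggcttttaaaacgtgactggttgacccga

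The last set holds members at imprinted genes, with AL-young means of 28.5 to 43.2%, and a member beside AY036118, from the region that gave most of the reads.
Gnas (coding exon), chr2:174125493-174125612: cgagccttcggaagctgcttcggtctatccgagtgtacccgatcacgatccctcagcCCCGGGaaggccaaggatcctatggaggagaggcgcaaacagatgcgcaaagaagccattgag
Peg12 (coding exon within the promoter window), chr7:69608983-69609102: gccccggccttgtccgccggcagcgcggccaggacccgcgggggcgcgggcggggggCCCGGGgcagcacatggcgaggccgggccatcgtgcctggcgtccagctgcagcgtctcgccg
Cdkn1c (intron), chr7:150645295-150645414: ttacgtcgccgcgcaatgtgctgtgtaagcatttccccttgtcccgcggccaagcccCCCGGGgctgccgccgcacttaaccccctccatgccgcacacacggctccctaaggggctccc
AY036118 (nearest gene, outside genes), chr17:39981126-39981245: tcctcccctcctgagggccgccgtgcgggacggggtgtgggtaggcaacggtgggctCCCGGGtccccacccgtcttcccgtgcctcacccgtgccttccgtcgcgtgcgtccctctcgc

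In young mice the members fell mostly at the top of the scale. The median AL-young mean was 87.1%, and 110 sites (54.7%) lay at 80% or more, 22 between 60 and 80%, 23 between 40 and 60% and 46 between 20 and 40%. Just inside the limit the lowest AL-young means were 20.02, 20.19, 20.93 and 21.11%, and just outside it the highest CpG-rich sites had 19.45, 19.64, 19.65 and 19.88%.

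By position, members were sites of coding sequence more than of gene starts. In GENCODE M1, 40 members (19.9%) lay in a promoter, from 1000 bp before to 500 bp after a start, against 79.7% of the 8691 CpG-rich sites under 20% in AL-young. Exons outside promoters held 98 members (48.8%), against 5.45% of those sites, introns held 25 and sequence outside genes 38. Coding sequence covered 100 members (49.8%), against 15.2% of the CpG-rich sites with low methylation and 12.7% of 4751 CpG-poor sites at 20% or more. The members' windows were less dense in CpG than those of the CpG-rich sites with low methylation, with a median CpG ratio of 0.721 against 0.838, and a median of 36 CpG per window against 48. These shares are a description.

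**Figure D1:**
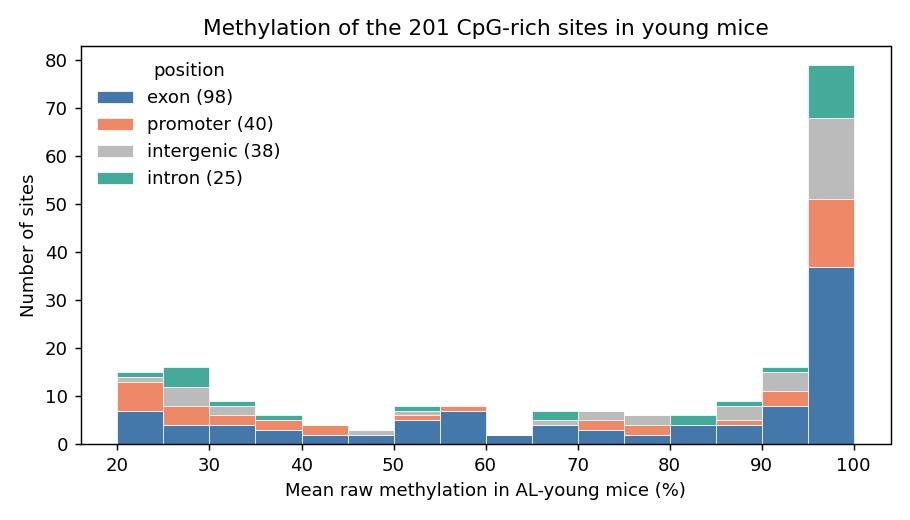
Histogram of the 201 members by their mean raw methylation in the 5 AL-young mice (horizontal axis, percent, bins of 5 points; vertical axis, number of sites), with bars stacked by position in GENCODE M1. Most sites lie at the right, and exons make up the largest share with 98 sites.

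Letter patterns were counted in the same windows on both strands. TGCCGC, the core of the motif of ZFP57, a protein that keeps methylation at imprinted regions, occurred in 73 member windows (36.3%), in 29.3% of all windows that passed and in 43.3% of the CpG-rich ones. CACGTG, the E-box, occurred in 30 member windows (14.9%), in 10.03% of all and in 11.03% of the CpG-rich ones, and both patterns were in the window of the Dazl member shown above. For 10 members the 40 bases on a side of the site also flanked another CCCGGG of the genome, which held for 77 of all 15742 sites, and no member had both sides shared.

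Members often lay close together. They belonged to 128 genes or nearest genes, 48 of which held 2 or more, and 67 neighbouring pairs lay within 500 bp of each other at a median distance of 169 bp. The AL-young means of such neighbours differed by a median of 4.62 points, with 36 pairs under 5 points and 11 over 20 points. The widest gap was in the promoter of Dazl, a gene for an RNA-binding protein of germ cells, where sites 267 bp apart had AL-young means of 39.8 and 99.5%. At Agap2, sites 169 bp apart had 44.99 and 98.4%, and at Fam83g, sites 209 bp apart had 31.7 and 74.8%.

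Mice were similar within the AL-young and CR-old groups and unlike each other within AL-old. Over the 142 sites read in all mice, the median SD between mice was 2.04 points in AL-young, 10.96 in AL-old and 3.75 in CR-old, and 125 sites (88.0%) had a larger SD in AL-old than in CR-old. Over all 11949 sites read in all mice that share was 66.0%, with median SDs of 0.243, 0.602 and 0.303 points, and among the CpG-poor sites at 20% or more it was 84.0%. On adjusted methylation the members' median SDs were 2.29, 11.4 and 4.12 points, and 120 of 142 (84.5%) were larger in AL-old, near the 82.2% of all sites on that scale.

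**Figure D2:**
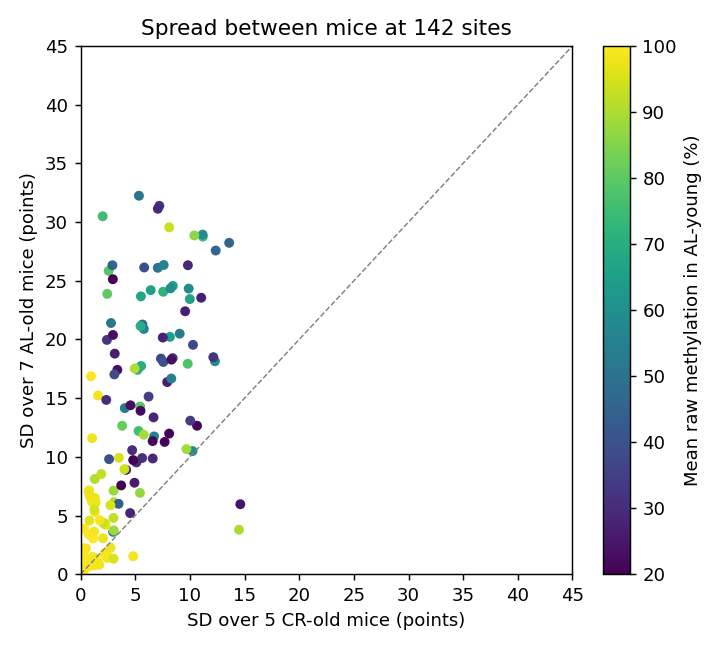
SD between the 5 CR-old mice (horizontal axis, points of raw methylation) against SD between the 7 AL-old mice (vertical axis) for 142 members, coloured by the AL-young mean, with a dashed line of equality. Of the 142 points, 125 lie above the line.

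Pairs of mice were compared within each group. AL-old 25 and AL-old 27, the males with low correction, differed by a mean of 16.4 points per site, and the 10 pairs of high-correction AL-old mice by 8.07 to 17.8 points (mean 13.3), while the 6 pairs of low-correction CR-old mice differed by 4.02 to 5.55 points and the 10 pairs of AL-young mice by 2.52 to 3.50 points. Measured from the AL-young mean, AL-old 25 lay 4.93 points away on average, below the 5.06 to 6.36 points of the CR-old mice, and the other 6 AL-old mice lay 9.63 (AL-old 10) to 15.9 points (AL-old 13) away. On adjusted methylation AL-old 25 lay 4.93 points away, the other AL-old mice 9.25 to 17.02 points and the CR-old mice 4.57 to 6.82 points.

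**Figure D3:**
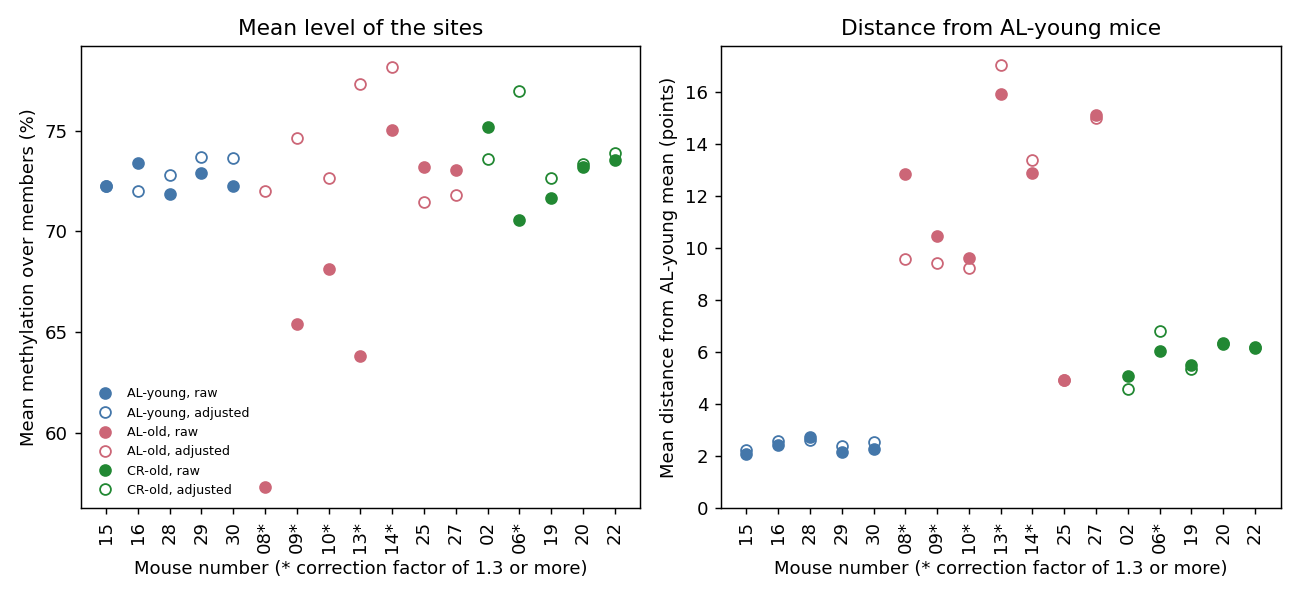
Left, mean methylation over the members in each mouse (vertical axis, percent; filled circles raw, open circles adjusted); right, mean distance of each mouse from the AL-young mean over 142 sites (points). On the right AL-old 25 sits beside the CR-old mice, and the other 6 AL-old mice lie at 9.63 points or more on raw methylation.

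The mean over members hid this spread. In each mouse it took the members with 100 reads or more, 152 in AL-old 08 and 162 in AL-old 13. The sites averaged thus differed between mice, and the part of missing sites in the group means was not tested. AL-young mice averaged 72.5 ± 0.614% (SD, n = 5), AL-old mice 68.0 ± 6.33% (n = 7) and CR-old mice 72.8 ± 1.78% (n = 5). Per mouse, AL-young ran from 71.8 to 73.4%, AL-old from 57.3% in AL-old 08 through 73.1 and 73.2% in the low-correction mice to 75.1% in AL-old 14, and CR-old from 70.6% in CR-old 06 to 75.2%. Adjusted means were 72.9 ± 0.781, 74.0 ± 2.76 and 74.1 ± 1.67%, so that the AL-old mean stood below the others only on raw methylation. Among members between 20 and 80% in AL-young, AL-old had 42.7 ± 8.44% raw and 52.3 ± 5.48% adjusted, against 46.9 ± 3.22 and 49.2 ± 2.42% in CR-old.

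CR-old and AL-old mice were compared site by site, with edgeR's quasi-likelihood test over all 15742 sites. Besides diet, the groups differed in age (32 to 38 against 29 to 33 months). They also differed in sex (2 of 5 against 5 of 7 females) and in high correction (1 of 5 against 5 of 7). The main fit had no term for these, so its calls cannot be put down to diet alone. A site was called at a Benjamini-Hochberg adjusted p under 0.05 with group means at least 2 points apart. This contrast was not used to choose the members. Of 201 members, 7 (3.48%) were higher in CR-old and 1 (0.498%) was lower, and 40 had an unadjusted p under 0.05. Among all sites 1.65% were called higher and 1.77% lower, and 15.9% had an unadjusted p under 0.05 against 19.9% of the members. The CpG-rich sites under 20% in AL-young had 0.0805% higher and 1.98% lower, and the CpG-poor sites at 20% or more had 4.36% higher and 1.54% lower, and these shares were not tested against each other. With the authors' factor as an offset the split of the 201 was 6 higher and 8 lower, beside 1.22 and 6.97% of all sites, and limma on adjusted methylation gave 7 and 10, beside 1.22 and 6.68%. A term for high correction, fitted on all 17 mice, left 1 higher and 0 lower, the former at Pik3r2, beside 0.0381 and 0.381% of all sites. Low-correction mice alone also gave 1 and 0, beside 0.108 and 1.01%, with 2 AL-old mice left. Without AL-old 25 there were 14 higher and 5 lower, beside 4.19 and 3.7% of all sites, and without CR-old 20 there were 4 and 0, beside 0.61 and 0.438%. The median difference over members, CR-old minus AL-old, was 0.334 points raw and -0.959 points adjusted, against 0.0 and -0.233 points over all sites.

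The clearest was a site in Pik3r2, which encodes a regulatory subunit of phosphoinositide 3-kinase, at chr8:73292429-73292434 in an untranslated part of an exon. It read 20.6, 30.0, 18.1, 23.8 and 28.4% in AL-young, a lowest of 0.483, a median of 2.33 and a highest of 17.5% in AL-old, and 28.2, 11.5, 41.4, 38.2 and 49.5% in CR-old. AL-old 25 was the highest AL-old mouse and CR-old 06 the lowest CR-old mouse, and the ranges overlapped there alone. The odds of methylation were higher in CR-old by 4.20 ± 0.75 on the log2 scale (SE; edgeR adjusted p = 6.04e-04). It was called in all 25 alternatives that were computed for it, also among low-correction mice alone (log2 odds ratio 3.11, adjusted p = 0.048, 4 CR-old and 2 AL-old mice).

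Both members in Zfp703, a zinc-finger gene, followed the same pattern 181 bp apart in coding sequence. At chr8:28090285-28090290 AL-young mice had 81.3, 87.0, 87.8, 88.0 and 87.8%, AL-old mice a lowest of 5.39, a median of 31.8 and a highest of 92.5%, and CR-old mice 81.5, 67.9, 85.3, 92.0 and 94.0%. All AL-old mice but AL-old 25 lay below every CR-old mouse. On the log2 scale the odds ratio was 3.91 ± 0.81 (SE, edgeR adjusted p = 0.00252), and it lost its call with a term for high correction (2.70, adjusted p = 0.103) and among low-correction mice (2.90, adjusted p = 0.265). The neighbour at chr8:28090104-28090109, outside the naming rule and added after its values were seen, had a mean of 71.5 ± 5.19% in AL-young, 25.1 ± 24.1% in AL-old and 72.8 ± 7.55% in CR-old (adjusted p = 0.00237).

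The member nearest to Clcn4-2, a chloride channel gene, lay outside genes at chr7:7230843-7230848. AL-young mice had 63.6, 54.3, 80.4, 66.5 and 65.2%, AL-old mice a lowest of 20.8, a median of 34.7 and a highest of 85.4%, and CR-old mice 68.5, 86.3, 90.02, 88.6 and 72.3%. Again AL-old 25 alone reached the CR-old range. CR-old exceeded AL-old in odds by 2.83 on the log2 scale, with an SE of 0.68 (edgeR adjusted p = 0.00948), and the call was lost without CR-old 19 (adjusted p = 0.0541), without CR-old 20 (0.054), with a term for high correction (0.0685), among low-correction mice (0.354) and with limma on adjusted methylation (0.0563). Another Clcn4-2 member, 305 bp away at start 7230538, did not share this pattern. Its means were 86.8% in AL-young, 92.3% in AL-old and 93.9% in CR-old, with 1.54 points between the old groups.

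At AI661453, in coding sequence at chr17:47605552-47605557, CR-old mice stood above AL-young as well. AL-young mice had 61.6, 67.2, 60.9, 68.1 and 65.5%, AL-old mice a lowest of 14.7, a median of 46.6 and a highest of 86.0%, and CR-old mice 81.5, 74.1, 76.6, 89.6 and 93.9%. The highest AL-old value, in AL-old 25, lay within the CR-old range and the other 6 below it. Between the old groups the log2 odds ratio was 2.64, with an SE of 0.72 (edgeR adjusted p = 0.0252). The call was lost in 6 alternatives, in which the log2 odds ratio was 2.12 to 2.65, with adjusted p from 0.056 to 0.117 without AL-old 13, CR-old 20 or CR-old 22, 0.138 with a term for high correction, 0.161 among low-correction mice and 0.0745 in a fit of the 2 groups alone.

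The other members called higher in CR-old had fewer than 17 mice with 100 reads and are named outside the rule, after their values were seen. In the promoter window of 4933403G14Rik, 4 AL-old mice had 6.96, 14.4, 2.81 and 12.0%, all below the CR-old mice at 62.5, 28.6, 52.6, 57.7 and 49.5% (adjusted p = 0.00575). At Cdr2l the means were 87.5 ± 2.51% in 5 CR-old mice and 55.4 ± 25.2% in 6 AL-old mice (adjusted p = 0.0496). Both adjusted p-values are from edgeR on all counts, also those of the AL-old mice under 100 reads that are not shown. With counts under 100 reads set to 0, the contrast again had 7 members called higher and 1 lower, beside 1.56 and 1.73% of all sites.

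The member called lower in CR-old lay in coding sequence of Prokr1, which encodes a prokineticin receptor, at chr6:87531624-87531629. AL-young mice had 95.7, 94.4, 95.7, 97.01 and 94.4%, AL-old mice a lowest of 95.8, a median of 99.05 and a highest of 99.5%, and CR-old mice 92.6, 97.4, 89.4, 90.8 and 92.5%. CR-old 06 alone lay within the AL-old range, and the CR-old mean differed from the AL-old mean by -5.93 points. In odds this came to -2.45 on the log2 scale, with an SE of 0.68 (edgeR adjusted p = 0.0268), and the call was lost on leaving out any of CR-old 02, 19, 20 or 22 (adjusted p 0.068 to 0.107), with a term for high correction (0.202), among low-correction mice (0.084), with a sex term (0.0774) and in a fit of the 2 groups alone (0.1).

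**Figure D4:**
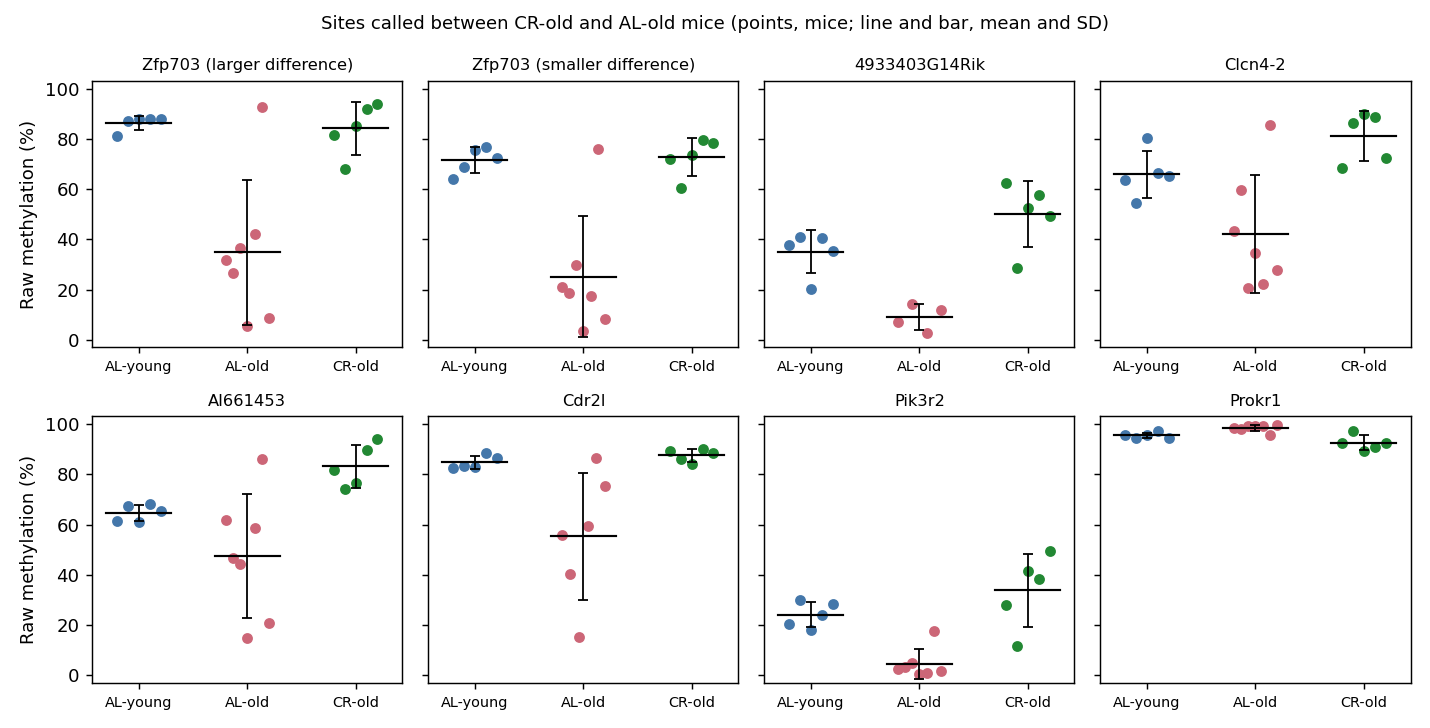
Raw methylation (vertical axis, percent) in each mouse at the 8 members called between CR-old and AL-old, with the mean and SD of each group as a line and bar; mice under 100 reads are left out. In the panels for Zfp703, Clcn4-2, AI661453 and Cdr2l the highest AL-old point is AL-old 25, at 76.1 to 92.5%.

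Separation of every mouse was rare in this contrast. Among the 142 members read in all mice, the CR-old range lay wholly above the AL-old range at 0 and wholly below it at 1, while over 11949 sites the shares were 0.0921 and 0.477%. The single member was the Dazl site, with AL-old from 58.3 to 85.2% and CR-old from 48.7 to 53.9%, and it was not called on raw methylation (log2 odds ratio -1.26 ± 0.61, SE, edgeR adjusted p = 0.286). It was called lower in CR-old with the factor as an offset (-1.86, adjusted p = 0.0427) and by limma on adjusted methylation (-1.89, adjusted p = 0.0413), on which scale the ranges overlapped. On adjusted methylation the CR-old range lay wholly above the AL-old range at 2 members and wholly below it at 0. Over the 11949 sites this held at 22 and 164.

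Differences from AL-young mice share with the membership rule the mice it used, so they are a description. In AL-old, 1 member was called higher and 13 lower than in AL-young, beside 3.9 and 5.86% of all sites. The split was 13 higher and 5 lower with the factor as an offset, beside 7.62 and 3.33% of all sites, and 15 and 6 with limma on adjusted methylation, beside 7.68 and 3.35%. The median AL-old minus AL-young was -1.27 points raw and 0.242 points adjusted. The count of higher and lower calls was 4 and 26 without AL-old 25, beside 4.67 and 8.98% of all sites, and that of lower calls was 8 without AL-old 08 or AL-old 09, and it was 0 with a term for high correction or among low-correction mice alone, beside 0.997 and 1.39% of all sites. With the term for high correction 1 member was called higher, the Ltbp3 site given further on, and among low-correction mice 4, beside 4.59 and 8.58% of all sites.

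The member higher in AL-old was the Dazl site at chr17:50432442-50432447. It read 41.4, 35.5, 42.2, 40.2 and 39.9% in AL-young, a lowest of 58.3, a median of 70.0 and a highest of 85.2% in AL-old, and 53.9, 53.2, 48.7, 48.8 and 53.4% in CR-old, so that the 3 groups did not overlap. AL-old and AL-young means were 71.0 ± 9.80 and 39.8 ± 2.60% (adjusted methylation 78.5 and 40.8%). The call was lost on leaving out any AL-young mouse or AL-old 13 (edgeR adjusted p 0.0508 to 0.0884), with a term for high correction (log2 odds ratio 1.63 against 1.95, adjusted p = 0.168), with a sex term (0.0649) and in a fit of the 2 groups alone (0.0643), and it held among low-correction mice (0.0455). The other 2 Dazl members, at 99.5 and 98.0% in AL-young, had 99.5 and 95.2% in AL-old and 99.6 and 98.4% in CR-old.

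Of the 142 members read in all mice, 2 lay above the AL-young range in every AL-old mouse, the Dazl site and one at Rbmxl2, beside 2.09% of 11949 sites. Another 2 lay below it in every AL-old mouse, beside 1.69% of those sites, at Pik3r2 and the pseudogene 2410075B13Rik. The latter, at chr15:75811619-75811624, read 56.1, 61.6, 53.4, 62.2 and 56.0% in AL-young, a lowest of 10.9, a median of 19.2 and a highest of 43.9% in AL-old, and 63.2, 39.96, 44.2, 45.4 and 36.9% in CR-old. Of the CR-old mice, those at 44.2 and 45.4% lay between the ranges of the other groups, those at 39.96 and 36.9% lay within the AL-old range and the one at 63.2% lay above all AL-young mice. The site was not called between CR-old and AL-old (edgeR adjusted p = 0.12), and it was called higher in CR-old without AL-old 25 (0.0343). On adjusted methylation 6 members lay above the AL-young range in every AL-old mouse and 2 below it, beside 540 and 181 of 11949 sites. Neighbouring Rbmxl2 members, in order along the chromosome, had AL-young means of 27.2, 55.4, 53.2 and 37.8%. Their AL-old means were 27.7, 76.4, 70.3 and 38.0%.

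Between CR-old and AL-young, edgeR called 0 members and 0.0% of all sites. An unadjusted p under 0.05 was found for 17 members (8.46%) and 6.86% of all sites, and limma on adjusted methylation called 0 members, beside 0.00635% of all sites higher and 0.0% lower. A fit of these 2 groups alone, whose spread is not shared with AL-old, called 9 members higher and 10 lower, beside 0.858 and 6.51% of all sites. Every CR-old mouse lay above every AL-young mouse at 10 members and below at 6, beside 1.37 and 5.68% of 11949 sites. The widest was an intronic site of Ltbp3, which encodes a binding protein of latent TGF-beta, singled out after its values were seen. It read 25.1, 26.4, 28.9, 29.7 and 23.3% in AL-young and 72.5, 56.8, 74.6, 83.7 and 83.6% in CR-old, with AL-old from 19.4 to 77.2% (median 47.0%). Other members there, 97 bp apart at starts 5745691 and 5745788, lay closer between these groups. Their means were 34.7 and 34.1% in AL-young, 24.1 and 24.3% in AL-old, and 41.1 and 46.0% in CR-old.

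Of 61 genes on a list of imprinted genes, 19 had a site that passed within the gene or 5 kb of it and 5 had a member, with 10 members in all. In both contrasts edgeR called 0 of them, 0 had an unadjusted p under 0.05 and limma on adjusted methylation called 0. Over all sites edgeR called 3.9% higher and 5.86% lower in AL-old against AL-young, and 1.65 and 1.77% in CR-old against AL-old. The shares with an unadjusted p under 0.05 were 22.4 and 15.9%. At those shares 10 members are too few to read 0 calls as a result about imprinted genes. AL-young means ran from 21.3 to 54.1%. The member with most reads in Gnas, which encodes the stimulatory G-protein alpha subunit and overlaps the antisense transcript Nespas, had 43.7, 42.8, 42.8, 44.1 and 42.4% in AL-young, an AL-old range of 28.8 to 48.3% (median 39.6%) and 48.1, 40.3, 43.4, 42.3 and 39.3% in CR-old. Its AL-young SD was 0.705 points.

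In Peg12, a gene expressed from the paternal copy, the member with most reads had means of 40.3 ± 3.54% in AL-young, 50.5 ± 18.1% in AL-old and 39.1 ± 7.57% in CR-old, and AL-old mice ran from 18.2 to 73.3%. In Cdkn1c, which encodes a cyclin-dependent kinase inhibitor, the means were 28.5 ± 3.68, 27.2 ± 5.21 and 27.7 ± 4.53%, with AL-old from 21.0 to 35.0%. In Cdh15, a cadherin gene, they were 45.8 ± 3.64, 36.5 ± 28.2 and 49.0 ± 13.6%, and AL-old mice spanned 13.1 to 90.6%. On adjusted methylation the AL-old means of the first 3 genes were higher than raw, at 52.4% for Gnas, 62.4% for Peg12 and 40.05% for Cdkn1c, against 45.6, 41.8 and 30.3% in CR-old. Over the 10 members the median AL-old minus AL-young was 0.603 points raw and 11.4 points adjusted.

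Of 67 genes on a list of germ-cell genes, 4 had a promoter site that passed, and Dazl, Ddx4 and Sycp1 had 6 members there. Apart from the Dazl site above, these were close to full methylation. Ddx4, which encodes an RNA helicase of germ cells, had 99 ± 0.501% in AL-young, 98.8 ± 1.39% in AL-old and 97.8 ± 2.46% in CR-old at its member with most reads. Sycp1, which encodes a protein of the synaptonemal complex, had 98.1 ± 1.28% in 5 AL-young, 100.0 ± 0.0% in 3 AL-old and 98.8 ± 1.29% in 5 CR-old mice, the other 4 AL-old mice having under 100 reads. Boll, a relative of Dazl that was added after its values were seen, had a promoter member at 23.1 ± 3.94% in AL-young, 46.7 ± 17.4% in AL-old and 32.3 ± 3.36% in CR-old. Of 39 genes on a list of blood lineage genes, 13 had a site that passed, with 48 sites in all, and 0 had a member. Members were 201 of all 15742 sites, and 0 of 48 is near that share.

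**Figure D5:**
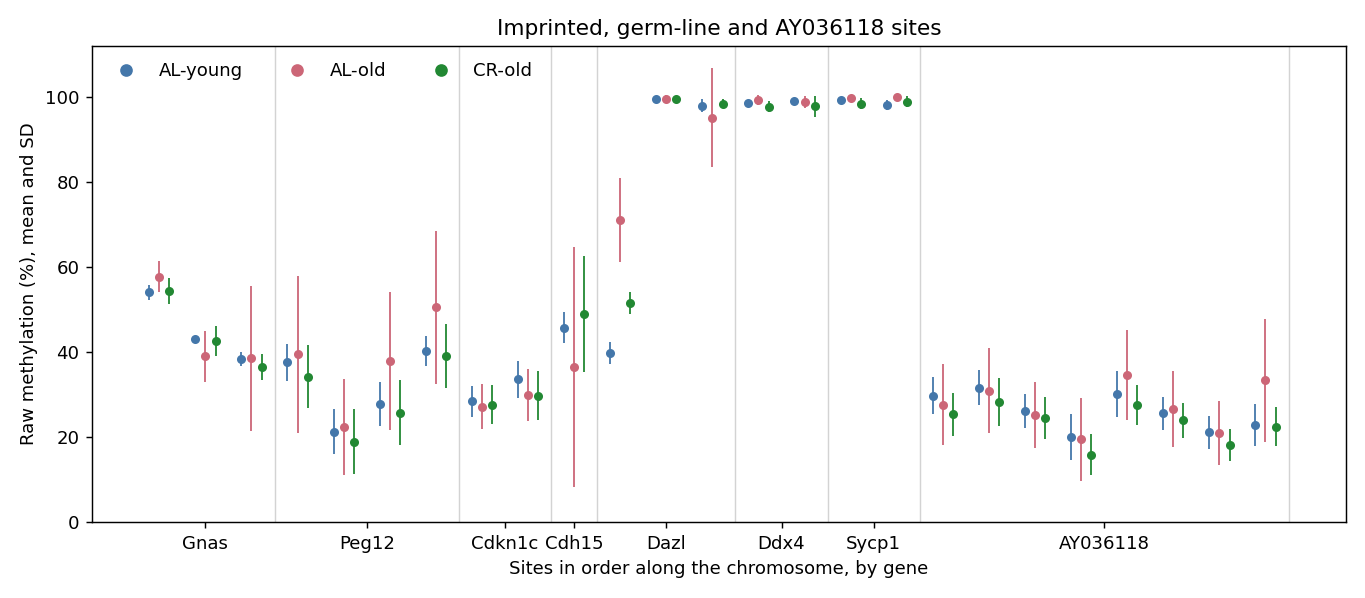
Raw methylation (vertical axis, percent; points, group means; bars, SD) at each member of 4 imprinted genes, 3 germ-cell genes and AY036118, in order along the chromosome (horizontal axis). The first Dazl site stands apart from its neighbours, with group means of 39.8% (AL-young), 71.0% (AL-old) and 51.6% (CR-old).

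A cluster of 8 members on chromosome 17, from 39981183 to 39985701, with AY036118 as nearest gene, differed from all others in depth. The cluster was picked out after its values were seen. It had a median of 26175 reads per site and mouse, against 421 at the other members, and took 74.2 to 87.9% of all member reads in each mouse. The search for copies covered only the mm9 sequence, so copies that mm9 lacks would not be seen. Whether reads from such copies were pooled at these sites was not tested. AL-young means at the sites ran from 20.02 to 31.6%. The mean over the 8 sites was 26.5, 27.9, 30.2, 26.1 and 18.9% in AL-young, 13.6 to 42.2% in AL-old and 27.9, 19.4, 23.7, 18.3 and 27.3% in CR-old. The AL-old extremes were AL-old 09 and AL-old 27, and the group means of 25.9 ± 4.22, 27.4 ± 9.28 and 23.3 ± 4.40% differed by less than the AL-old SD. Adjusted, they were 26.6 ± 4.03, 38.7 ± 13.8 and 25.5 ± 4.36%, with AL-old 13 at 63.4% and AL-old 25 at 20.5%.

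A site near 100% has little room to vary, which bounds its SD. The smallest SDs between CR-old mice, chosen by that SD, were at ORF61 (99.9 ± 0.120%), 1700067K01Rik (98.6 ± 0.192%) and a pair of sites in Odz3 (99.6 ± 0.253 and 99.2 ± 0.269%), all near the upper end. The largest were at Pik3r2, Cdh15, Eftud1 (80.9 ± 14.5%, from 61.3 to 95.9%) and a site nearest to Rgs9 (23.9 ± 12.4%, from 8.01 to 35.2%). At the Rgs9 site AL-old mice ran from 26.8 to 93.2%, and at Eftud1 from 87.8 to 98.4%, and neither was called (edgeR adjusted p = 0.146 and 0.0767). The Rgs9 site was called lower in CR-old with the factor as an offset (adjusted p = 0.019), by limma on adjusted methylation (0.0306) and without AL-old 25 (0.0493). Eftud1 was called lower with the offset (0.00541), by limma (0.0214), without AL-old 25 (0.0191) and without CR-old 06 (0.0232).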

How the data were processed

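Whole blood DNA of 17 mice was measured by DREAM. Per the deposited tables, the authors counted methylated, unmethylated and total reads at each CCCGGG site after alignment to mm9. The submitters' processing notes name Bowtie2 and SAMtools without versions, and also mm10. The authors also deposited methylation in percent, raw and adjusted to spiked standards. The raw percent was found to carry a pseudocount of 0.5 reads for each end, and the adjusted percent to scale the odds by a constant per mouse.

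Raw values here were the methylated share of the deposited counts at 100 reads or more. At 100 reads a site at 50% has a 95% Wilson interval of 40.4 to 59.6%, and 3 reads allow a share down to 3%, both for counting error only. All 173449 positions lay on CCCGGG in NCBIM37 (mm9). Genes came from GENCODE M1. That genome copy marks no repeats, so repeats were not classed, and the 40 bases beside each site were searched for copies instead.

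edgeR 4.0.16 (R 4.3.3) fitted methylated and unmethylated counts of the 3 groups by quasi-likelihood at all 15742 sites. The fit was first run on simulated data with the same spread in every group. That run does not cover the wider spread within AL-old. The main fit also used counts under 100 reads at these sites. limma 3.58.1 was an alternative. Adjusted p-values are Benjamini-Hochberg values over all sites. Per the labels a mouse number names a mouse, so samples are separate animals.

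Members, gene lists and tests were chosen with earlier results of these data known. Sites were named by rule: called members by size of difference, spaced at least 10 kb and read in all mice, listed imprinted genes and germ-cell promoters by the member with most reads, and the 4 smallest and 4 largest CR-old SDs. Alternatives concerned correction, sex, depth, tool, membership and each mouse. Sites on chromosome 18 are not named.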

Additional observations from a re-analysis of the deposited data

Results flagged for a closer look

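In 33 groups of values looked at, a mouse stood apart from the rest of its group in 5, by its gap to the nearest mouse relative to the group's range. Chance gives about 1 in 20 for separate groups not picked by their values. These groups shared mice and included sites named for their differences, so the 5 cannot be set against that rate. AL-old 25 stood apart at 3 sites. It read 92.5% at the Zfp703 site at 28090285, where the other 6 AL-old mice read 5.39 to 42.3%. It read 17.5% at Pik3r2 and 43.9% at 2410075B13Rik, the highest AL-old values there. AL-young 15, at 81.3% at the same Zfp703 site, stood below the 87.0 to 88.0% of the other AL-young mice. CR-old 06, the CR-old mouse with high correction, had an adjusted mean over members of 76.95%, above 72.6 to 73.9% in the other CR-old mice, while its raw mean of 70.6% was the lowest of its group. The part of depth or cell composition in these values was not tested.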

How the results depend on the processing

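No paired analysis was possible because mouse numbers are not shared between groups. Below, age is short for AL-old against AL-young and diet for CR-old against AL-old. Across 180 alternative counts of called members, 125 stayed within 1.5 times the count in the report, and no named call changed sign. Of 82 alternative medians 8 had the other sign. The 82 include medians that could not move, as when a mouse outside the contrast was left out. The offset and limma used the same values and count separately. On adjusted methylation (the offset and limma) those of the other sign were 0.242 points for AL-old minus AL-young and -0.959 for CR-old minus AL-old. Among low-correction mice they were 0.0862 and -0.722. At 500 reads and without AL-old 08 the median CR-old minus AL-old was -0.655 and -0.099. An offset of the correction factor gave AL-old against AL-young 13 members higher and 5 lower (1 and 13 in the report), CR-old against AL-old 8 lower (1) and CR-old against AL-young 1 higher (0). A term for high correction gave 1 higher, at Ltbp3 and not at Dazl, and 0 lower for age and 1 higher and 0 lower for diet, and 1 higher for CR-old against AL-young. Low-correction mice alone gave 4 higher and 0 lower for age, 1 higher and 0 lower for diet, and 3 higher and 1 lower for CR-old against AL-young, with 2 AL-old mice left. A sex term gave 0 higher for age, 0 lower for diet and 1 higher for CR-old against AL-young. Fits of the 2 groups compared gave 0 higher for age, 0 lower for diet, and 9 higher and 10 lower for CR-old against AL-young. limma on adjusted methylation gave 15 higher and 6 lower for age and 10 lower for diet. At 500 reads, with 59 members, age had 0 higher and 2 lower and diet 3 higher and 0 lower. Membership at GC 55% and ratio 0.65, with 132 members, gave 5 lower for age, and 3 higher and 0 lower for diet. Apart from fewer members or mice, the cause was not tested. Leaving out each mouse gave 0 to 4 higher and 8 to 26 lower for age, 4 to 14 higher and 0 to 5 lower for diet, and 0 to 1 higher and 0 to 0 lower for CR-old against AL-young. Without AL-old 25 there were 4 higher and 26 lower for age and 14 higher and 5 lower for diet. Medians ranged from -1.97 to -0.574 points for AL-old minus AL-young, -0.099 to 0.746 for CR-old minus AL-old and -1.15 to -0.594 for CR-old minus AL-young. Zeroing counts under 100 reads and fits of 2 groups leave raw medians as they are, and a term for high correction gives no age median since no AL-young mouse had it. None of the 8 AY036118 sites was called, so removing them, an alternative chosen after seeing the data, could not change the counts. Those counts are among the 125 above. It moved the median AL-old minus AL-young from -1.27 to -1.57 points and CR-old minus AL-old from 0.334 to 0.464 points.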
